A study of Mus musculus with 75 samples.

Results

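Tubular injury markers and injury keratins were followed in whole-kidney RNA-seq of mice with unilateral ureteral obstruction (UUO), in which the ureter of 1 kidney is ligated and compared with its contralateral (CL) partner. The group consisted of 10 genes taken by symbol from the deposited count table of 32245 genes: Havcr1, Lcn2, Clu, Spp1, Krt7, Krt8, Krt18, Krt19, Krt20, and Cd44. All 10 had enough counts to be tested in each of the 3 arms of the study. There were 75 libraries of kidneys in 12 groups, all from adult mice and, apart from the sham-operated mice named below, at day 3 of UUO.

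The ABTAA arm compared mice given ABTAA, an antibody that binds ANGPT2 and activates the endothelial receptor TIE2, with mice given human IgG Fc, both of the C57BL6/J strain or WT from the crosses of the study. There were 8 CL and 8 UUO libraries of IgG-treated mice, and 7 of each kidney of ABTAA-treated mice. The Veptp arm compared mice that lacked the phosphatase VE-PTP (gene Ptprb) in endothelium, through floxed alleles and a tamoxifen-inducible Cdh5-driven Cre (Veptp iECKO), with Veptp WT mice. The Veptp WT mice were non-induced and carried 1 floxed allele and the same Cre. CL kidneys gave 7 WT and 6 iECKO libraries, and UUO kidneys gave 8 of each genotype. The methods give fewer Veptp WT mice than these UUO libraries, and the labels were followed. The Pdgfb arm compared mice with floxed Pdgfb and an inducible Cre under a ubiquitous actin promoter (Pdgfb iKO) with Cre-negative littermates that carried 1 or 2 floxed alleles (Pdgfb WT), with 4 libraries in each of its 4 groups. The lines were on a mixed background. Mice with UUO received the analgesic carprofen, and the Pdgfb WT CL group included kidneys from 2 mice with sham surgery, which the labels do not mark.

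Tubular cells that are injured lose their transport functions and take up another set of genes. HAVCR1 (KIM-1) is a membrane receptor for dying cells that is nearly absent from healthy proximal tubules, and LCN2 (NGAL) is a secreted carrier of iron-binding siderophores. Both are measured in urine as markers of kidney injury. Clusterin (CLU) is a secreted chaperone, and osteopontin (SPP1) is a secreted ligand of integrins and CD44. Keratins form intermediate filaments from 1 type I and 1 type II partner. KRT7 and KRT8 are type II and KRT18, KRT19, and KRT20 are type I keratins, with KRT8 and KRT18 the usual pair of simple epithelia. CD44 is a receptor for hyaluronan and osteopontin.

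Several features of the libraries bear on the values. Total counts ranged from 172827 to 2341800 per library (median 757897), so that the limit a count of 0 allows, 3 counts, stood for 1.28 CPM in the deepest and 17.4 CPM in the shallowest library. Levels are given as CPM (a gene's count per 1e6 counts of its library) scaled by TMM factors, and as intervals cover counting error only, all spreads are over libraries. Library names came in 2 forms, 45 plain and 30 split by a low line (as in P_1), and both forms occurred in the ABTAA and Veptp arms. Of the numbers in the Veptp names, 3, 4, 7, and 8 stood for opposite genotypes in CL and UUO libraries. If the numbers mark mice, which the labels do not say, the genotype labels of these libraries conflict. The Veptp comparisons rest on those labels. The deleted genes did not pass the test between genotypes. Ptprb was at 48.2 ± 26.3 CPM (SD, n = 8) for Veptp WT UUO and, in UUO kidneys of Veptp iECKO mice, at 31.3 ± 17.7 CPM (n = 8) (adjusted p = 0.99982 by edgeR). Pdgfb stood at 10.5 ± 6.76 CPM (n = 4) in Pdgfb WT CL and at 19.1 ± 3.98 CPM (n = 4) in CL kidneys labelled Pdgfb iKO, where the label would have it lower, and at 53.1 ± 6.49 and 37.2 ± 3.34 CPM in UUO kidneys (adjusted p = 0.12395). As the UUO counts followed the label and the CL counts did not, the label is written as "labelled Pdgfb iKO". Whether the counted exons lie in the deleted stretch was not tested, so that these counts may not check the deletion. In Veptp iECKO CL replicate 2 (library B8, 278084 counts) several of the 10 genes stood near UUO levels, and the results that rest on it are given with and without it.

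With UUO, 9 of the 10 genes rose in mice given IgG, mice given ABTAA, and both WT groups, 8 in mice labelled Pdgfb iKO, and 7 in Veptp iECKO mice. Krt7 passed the test in none of these 6 comparisons. A gene was called at an adjusted p under 0.05 by the quasi-likelihood test of edgeR, adjusted by the Benjamini-Hochberg method over all genes of the arm. Against this, 16.3% of all genes tested were called higher in UUO kidneys of IgG-treated mice, 12.6% in ABTAA-treated, 10.0% in Veptp WT, 4.47% in Veptp iECKO, 17.9% in Pdgfb WT, and 3.95% in mice labelled Pdgfb iKO. Each UUO library exceeded each CL library for 9 of 10 genes in IgG, 8 in ABTAA, and 7 in Veptp WT mice. This held for 4 in Veptp iECKO, 9 in Pdgfb WT, and 7 in labelled Pdgfb iKO mice. Of all genes it held for 4.06%, 3.78%, 3.26%, 0.671%, 16.6%, and 6.09% in that order, the Pdgfb groups having 4 libraries each. The median log2 fold change of the 10 genes was 3.42 in IgG, 2.86 in ABTAA, 2.76 in Veptp WT, 1.42 in Veptp iECKO (2.07 without B8), 2.12 in Pdgfb WT, and 1.73 in labelled Pdgfb iKO mice, and the median of all genes lay between -0.01 and 0.04 in all 6. Without TMM factors that median of all genes rose by 0.08 to 0.37, and the UUO fold changes of single genes moved by about, not exactly, the shift of their group.

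**Figure D1:**
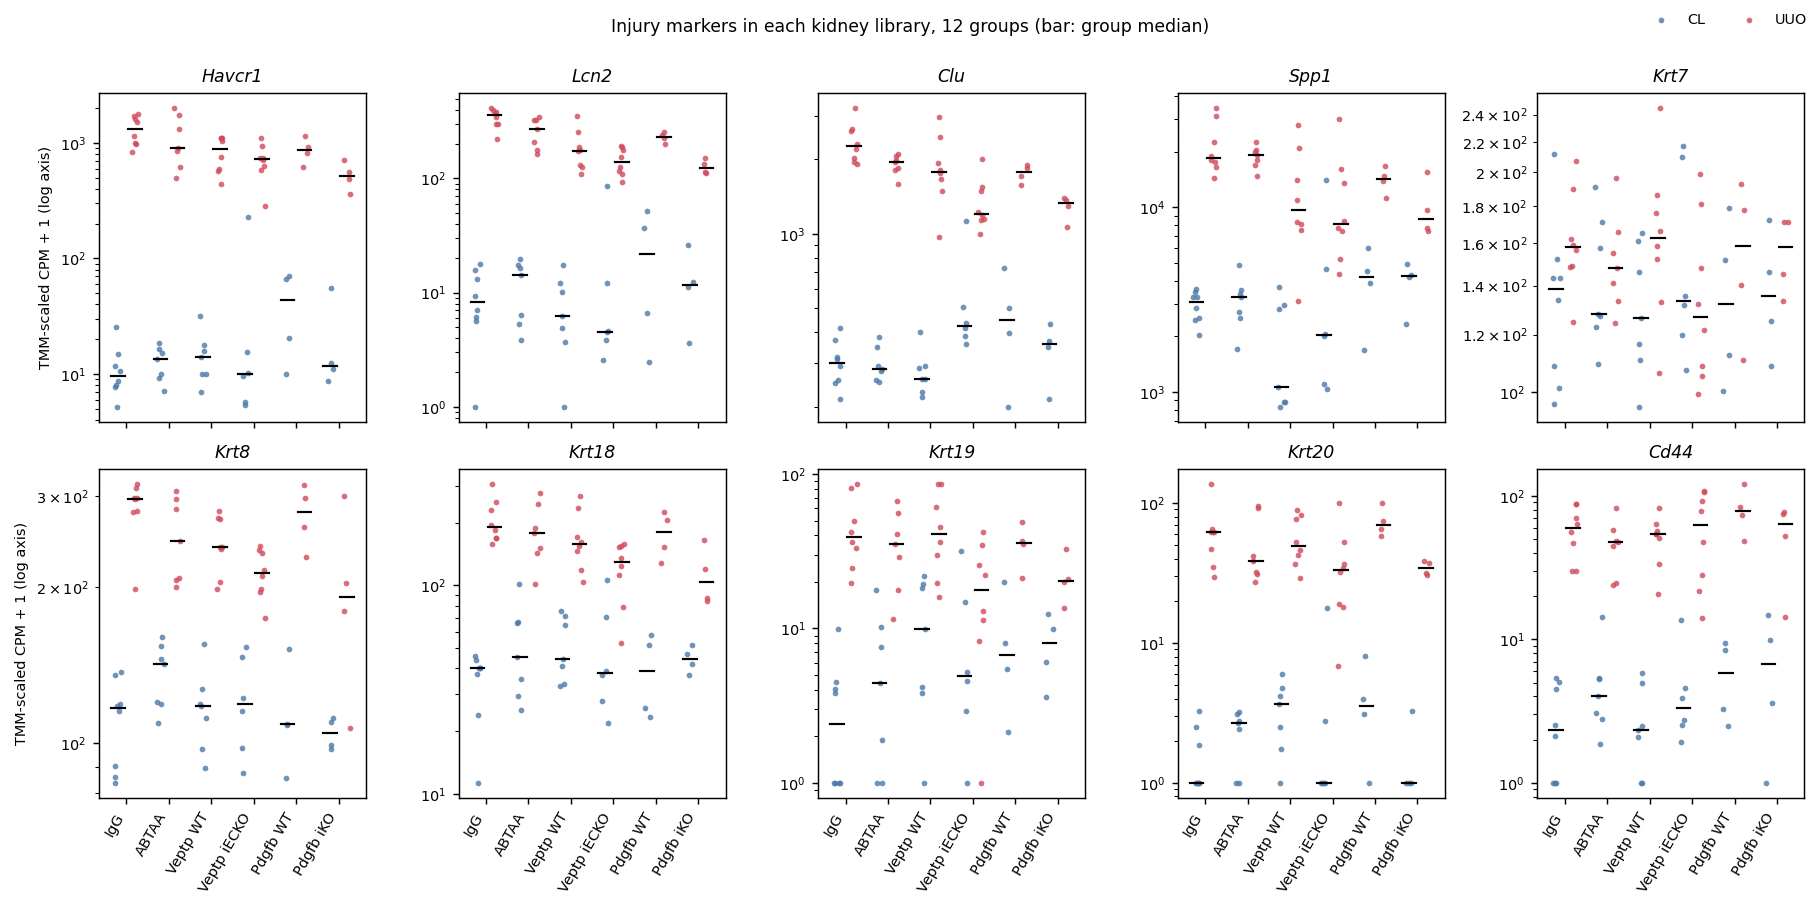
Level of each of the 10 genes (TMM-scaled CPM plus 1, log axis) in every library, by mouse group on the horizontal axis, with CL kidneys in blue, UUO kidneys in red, and the group median as a bar. Havcr1 and Lcn2 separate the 39 UUO from the 36 CL libraries, while the Krt7 values of the 2 kidneys lie over each other.

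**Figure D2:**
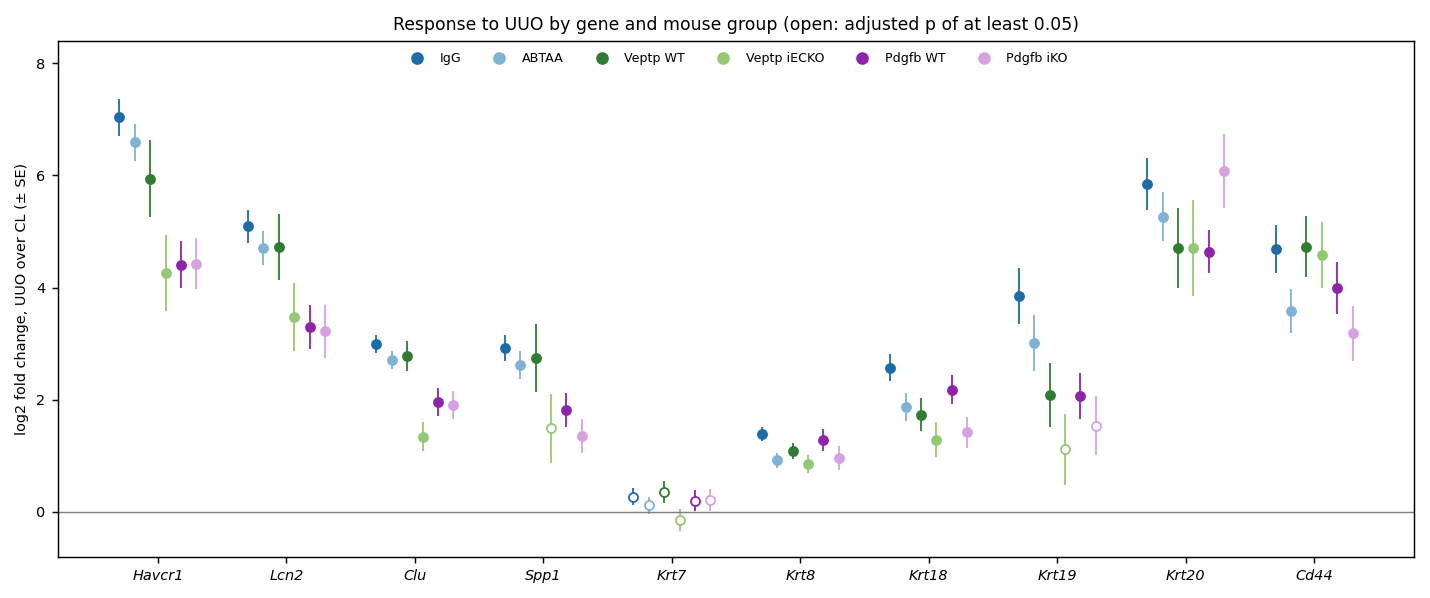
Log2 fold change of UUO over CL kidneys with its SE (edgeR) for each gene and mouse group, open symbols marking an adjusted p of at least 0.05. Havcr1 and Krt20 show log2 fold changes over 4 in each group, Krt8 lies between 0.85 and 1.39, and the 6 Krt7 values lie between -0.14 and 0.35.

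Havcr1, at chr11:46735080-46779578 on the plus strand of GRCm38, showed the largest change of the 10 in IgG-treated mice. It ranged from 4.19 to 24.4 CPM (median 8.65) in IgG CL and from 825 to 1769 CPM (median 1329) in IgG UUO libraries. In ABTAA-treated mice it ranged from 6.11 to 17.7 CPM (median 12.5) in CL and from 499 to 2016 CPM (median 897) in UUO libraries. The CL and UUO ranges lay far apart in both treatments. In the Veptp arm Havcr1 ranged from 5.91 to 30.4 CPM (median 12.9) in WT CL, from 439.5 to 1100.2 CPM (median 889.7) in WT UUO, and from 281 to 1099.8 CPM (median 719) in iECKO UUO libraries. In iECKO CL libraries it ranged from 4.39 to 228 CPM, with a median of 8.94 CPM, the highest value being library B8 and the next 14.4 CPM. In the Pdgfb arm the WT CL libraries held 9.05, 19.3, 65.9, and 69.7 CPM and the labelled iKO CL libraries 7.76, 10.1, 11.4, and 54.8 CPM, so that 3 of these 8 CL libraries were well above the IgG CL range. The UUO libraries held 618, 819, 929, and 1139.8 CPM in Pdgfb WT and 361, 483, 554, and 714 CPM in labelled iKO mice. Each UUO library of the study exceeded each CL library, the closest values being 281 CPM in UUO and 228 CPM in CL. The log2 fold change was 7.03 (SE 0.33) in IgG, 6.59 (SE 0.33) in ABTAA, 5.94 (SE 0.68) in Veptp WT, 4.26 (SE 0.68) in Veptp iECKO, 4.41 (SE 0.42) in Pdgfb WT, and 4.42 (SE 0.45) in labelled Pdgfb iKO mice. Without B8 the Veptp iECKO value was 6.57, and without the CL library at 54.8 CPM (A11) the labelled Pdgfb iKO value was 5.82.

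Lcn2, at chr2:32384633-32388252 on the minus strand, followed the same pattern at lower counts. It ranged from 0 to 16.8 CPM (median 7.24) in IgG CL and from 221 to 415 CPM (median 355) in IgG UUO libraries. ABTAA-treated mice had 2.85 to 18.8 CPM (median 13.2) in CL and 164 to 346 CPM (median 269.8) in UUO libraries. No UUO library came near a CL library in either treatment. In Veptp WT mice the CL libraries ranged from 0 to 16.4 CPM (median 5.25) and the UUO libraries from 108 to 349 CPM (median 174). In Veptp iECKO mice the CL libraries ranged from 1.55 to 84.4 CPM (median 3.56), B8 again the highest, and the UUO libraries from 92.7 to 192 CPM (median 138). The highest CL library was thus just below the lowest UUO library. The Pdgfb WT CL libraries held 1.49, 5.66, 35.9, and 50.5 CPM, and the UUO libraries 200.3, 226, 237, and 255 CPM. The labelled Pdgfb iKO CL libraries held 2.59, 10.1, 11.4, and 24.9 CPM and the UUO libraries 111, 113, 133, and 149 CPM. The 4 labelled iKO UUO libraries lay below each of the 4 WT UUO libraries. The log2 fold change with UUO ran from 3.22 (SE 0.47) in labelled Pdgfb iKO to 5.09 (SE 0.29) in IgG-treated mice. Single CL libraries moved it: without B8 the Veptp iECKO value went from 3.47 to 4.94, without replicate 2 of Pdgfb WT CL (F4) that of Pdgfb WT from 3.29 to 3.89, and without A11 that of labelled Pdgfb iKO from 3.22 to 4.15. The receptors of Lcn2 did not rise with it. Lrp2 (megalin), a proximal tubule endocytic receptor that is also in the proximal tubule list below, fell by 1.03 on the log2 scale (SE 0.17, edgeR adjusted p = 9.5e-06) in IgG and by 1.34 (SE 0.17, adjusted p = 8.5e-07) in Pdgfb WT mice, and Slc22a17 had a log2 fold change of -0.47 (adjusted p = 0.24) in IgG and fell by 0.62 (SE 0.20, adjusted p = 0.027) in Veptp WT mice.

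Clu and Spp1 differed from Havcr1 and Lcn2 in that CL kidneys already held high levels. Clu (chr14:65968483-65981547, plus strand) ranged from 213 to 418 CPM (median 301) in IgG CL and from 1924 to 3236 CPM (median 2259.7) in IgG UUO libraries. ABTAA-treated mice had 251 to 382 CPM in CL and 1596 to 2109.6 CPM in UUO libraries. Neither pair of ranges overlapped. In Veptp WT mice Clu ranged from 219 to 402 CPM (median 258) in CL and from 974 to 2978 CPM (median 1787) in UUO libraries. In Veptp iECKO mice it ranged from 358 to 1123 CPM (median 425) in CL and from 996 to 1998 CPM (median 1208) in UUO libraries, an overlap that rested on B8, as the next CL library stood at 504 CPM. The log2 fold change was 2.78 (SE 0.26) in Veptp WT and 1.34 (SE 0.26) in Veptp iECKO mice, and 1.70 without B8. In the Pdgfb arm the CL libraries held 199, 398, 499, and 726 CPM in WT and 215, 347, 369, and 433 CPM in labelled iKO mice. The UUO libraries held 1570.0, 1709, 1849.6, and 1893 CPM in WT and 1064, 1297, 1365, and 1395 CPM in labelled iKO mice, again with no overlap between the genotypes.

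Spp1 (chr5:104435118-104441050, plus strand, where a gene model, Gm42793, overlaps it on the same strand) ranged from 2024 to 3627 CPM (median 3066) in IgG CL and from 14337 to 34526 CPM (median 18418) in IgG UUO libraries. ABTAA-treated mice had 1707 to 4860.4 CPM (median 3246) in CL and 14726 to 22461 CPM (median 19064) in UUO libraries. The CL and UUO ranges did not overlap in either treatment. In the Veptp arm the ranges were wide, 830.3 to 3714 CPM (median 1060.2) in WT CL, 3093 to 27929.5 CPM (median 9633) in WT UUO, 1031 to 14083 CPM (median 2026) in iECKO CL, and 4331 to 29987 CPM (median 8082) in iECKO UUO libraries. On the log2 scale Spp1 rose by 2.74 in Veptp WT mice (SE 0.61, adjusted p = 0.0016), and the value of 1.49 (SE 0.61) in Veptp iECKO mice did not pass (adjusted p = 0.14). Without B8 it was 2.44 (SE 0.60) and passed (adjusted p = 0.0077), and with the name form as a covariate it was 1.53 (SE 0.31) and passed (adjusted p = 0.00039). Of the integrin subunits that bind osteopontin, 3 of 4 tested rose in IgG and in ABTAA mice, 4 of 5 in Veptp WT and in Pdgfb WT, 1 of 5 in labelled Pdgfb iKO, and 0 of 5 in Veptp iECKO mice. In IgG-treated mice Itgav rose by 1.12 (SE 0.18, adjusted p = 7.2e-06) and Itgb1 by 0.73 (SE 0.14), and in Veptp iECKO mice Itgav stood at 0.62 (SE 0.22, adjusted p = 0.084).

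The keratins fell into 4 patterns. Krt20 was at or near 0 in most CL kidneys and rose in each mouse group. Krt8 and Krt18 were present in CL kidneys and rose in each group, and Krt7 was present and did not pass the test in any, although it did in IgG-treated and Pdgfb WT mice without TMM factors. Krt19 was low in CL kidneys and rose in 4 of 6 groups. Krt8 (chr15:101996698-102004482, minus strand) and Krt18 (chr15:102028180-102032027, plus strand) are neighbours transcribed away from each other, Krt7 (chr15:101411043-101430313, plus strand) lies on the same chromosome, and Krt19 (chr11:100140810-100148665) and Krt20 (chr11:99428403-99438150) lie in the type I cluster on the minus strand. On the opposite strand the gene models Gm36026 and Gm671 overlap Krt8 and Krt7, and a processed pseudogene of Krt8 exists, so that reads could be shared. The sequences before the start of the 3 keratin genes that passed in all 6 comparisons are shown to let their letters be compared. They are from the RefSeq promoter windows (GRCm38.p6, 250 bases before to 50 after a start), cut to the bases before the annotated gene, and capitals mark matches to the motifs described after them.
Krt8, chr15:102004483-102004592, minus strand: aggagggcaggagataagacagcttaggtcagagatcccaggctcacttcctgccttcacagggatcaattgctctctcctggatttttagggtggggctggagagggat
Krt18, chr15:102027966-102028179, plus strand: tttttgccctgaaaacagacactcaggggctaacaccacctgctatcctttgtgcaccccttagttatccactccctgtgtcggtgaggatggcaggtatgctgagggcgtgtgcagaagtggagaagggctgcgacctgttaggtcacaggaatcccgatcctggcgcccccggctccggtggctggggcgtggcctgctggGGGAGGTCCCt
Krt20, chr11:99438154-99438403, minus strand: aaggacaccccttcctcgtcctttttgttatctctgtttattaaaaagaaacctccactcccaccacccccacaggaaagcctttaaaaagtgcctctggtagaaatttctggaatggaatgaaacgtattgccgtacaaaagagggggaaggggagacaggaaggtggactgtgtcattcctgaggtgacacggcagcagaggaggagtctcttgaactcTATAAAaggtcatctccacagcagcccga

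The windows were searched on both strands for an AP-1 motif (TGANTCA), an NF-kB motif (GGGA and CC with 4 bases of any kind between them), a STAT motif (TTCNNNGAA), and a TATA box (TATAAA). No match overlapped that of another motif. The Krt20 window held TATAAA from base -29 to -24 of the start, and the Krt18 window the NF-kB motif from base -47 to -38. The Krt8 window held TATAAA across the start itself, outside the stretch printed. The whole windows of all RefSeq starts (32851) held TATAAA in 13.6%, the NF-kB motif in 20.7%, TGANTCA in 7.81%, and TTCNNNGAA in 8.3%. Of the 10 genes, 8 had a window, Clu and Krt19 having none. TGANTCA was found in 1 of the 3 Havcr1 windows and TATAAA in the Spp1 window from base -211 to -206, and the Lcn2, Cd44, and Krt7 windows held none of the 4 motifs.

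Krt20, a keratin of urothelial umbrella and gut cells, had 0 counts in 16 of 36 CL libraries. It ranged from 28.4 to 136 CPM (median 60.8) in IgG UUO and from 26.1 to 94.1 CPM (median 37.8) in ABTAA UUO libraries, against at most 2.24 CPM in the CL libraries of both treatments. In the Veptp arm it ranged from 28.0 to 87.9 CPM in WT UUO and from 5.83 to 98.7 CPM in iECKO UUO libraries, against 0 to 4.98 CPM in WT CL and 0 to 16.9 CPM in iECKO CL libraries. The highest CL value was B8, which rested on 4 counts, and without B8 the other iECKO CL libraries held 2 counts in all, a ratio of 121 with an exact 95% interval of 33.3 to 1000.0. The Pdgfb WT UUO libraries held 57.1, 63.9, 73.5, and 99.2 CPM and the labelled iKO UUO libraries 29.8, 30.4, 36.1, and 37.7 CPM. The labelled iKO CL libraries held 1 count in all (library E10) against 126 in UUO, a ratio of 90.7 with an exact 95% interval of 16.0 to 3610. Without E10 the CL side was at 0, and the exact 95% interval of the ratio began at 20.2. The fitted log2 fold change, 4.64 (SE 0.38) in Pdgfb WT and 5.85 (SE 0.46) in IgG-treated mice, depends on edgeR's prior count where CL kidneys are this low. Without library F4 the Pdgfb WT value was 5.41 (SE 0.44).

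Krt8 rose by the smallest factor of the 9 genes that passed in IgG-treated mice, and with little spread. It ranged from 82.8 to 136 CPM (median 116) in IgG CL and from 197 to 316 CPM (median 295) in IgG UUO libraries. ABTAA-treated mice had 108 to 159 CPM in CL and 199 to 306 CPM in UUO libraries. Its log2 fold change ran from 0.85 (SE 0.15) in Veptp iECKO to 1.39 (SE 0.13) in IgG-treated mice. The CL and UUO ranges did not overlap in 5 of the 6 groups, and in mice labelled Pdgfb iKO 1 UUO library (replicate 1) at 106 CPM lay within the CL range of 96.3 to 111 CPM. Its partner Krt18 rose further, by 2.57 (SE 0.25) in IgG, 1.88 (SE 0.25) in ABTAA, 1.74 (SE 0.30) in Veptp WT, 1.29 (SE 0.31) in Veptp iECKO, 2.18 (SE 0.25) in Pdgfb WT, and 1.42 (SE 0.27) in labelled Pdgfb iKO mice. Krt18 ranged from 10.3 to 44.9 CPM (median 39.0) in IgG CL and from 156 to 306 CPM (median 189) in IgG UUO libraries. As a within-library value without gene length, the ratio of Krt8 to Krt18 had a median of 3.16 in IgG CL and 1.37 in IgG UUO, and of 3.22 and 1.57 in Pdgfb WT CL and UUO libraries. The ratio was not tested.

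Krt19 ranged from 0 to 8.98 CPM in IgG CL and from 18.6 to 85.2 CPM (median 37.9) in IgG UUO libraries, with 0 counts in 8 of 36 CL libraries of the study. Its log2 fold change was 3.85 (SE 0.50) in IgG, 3.01 (SE 0.50) in ABTAA, 2.08 (SE 0.57) in Veptp WT, and 2.07 (SE 0.41) in Pdgfb WT mice. Without library P_1 of the IgG CL group the IgG value was 4.48, and without replicate 4 of Pdgfb WT CL (B5) the Pdgfb WT value was 3.10. The values of 1.11 (SE 0.63, adjusted p = 0.34) in Veptp iECKO and 1.54 (SE 0.52, adjusted p = 0.083) in labelled Pdgfb iKO mice did not pass, and the latter passed without E4 or without B5 (adjusted p = 0.046 and 0.045), by edgeR's exact test (0.014), with its 2 groups fitted alone (0.037), and without the filter on low counts (0.0024). The Veptp iECKO value passed with the name form as a covariate (1.35, SE 0.47, adjusted p = 0.035), and without the CL library G_3 it was 2.13 (SE 0.69, adjusted p = 0.056). In Veptp iECKO mice the CL libraries ranged from 0 to 30.8 CPM and the UUO libraries from 0 to 41.2 CPM. These ranges overlapped over most of their length.

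Krt7, found in collecting duct and urothelium, stood at 135 ± 37.1 CPM (n = 8) in IgG CL and 161 ± 25.7 CPM (n = 8) in IgG UUO kidneys (log2 fold change 0.27, SE 0.15, adjusted p = 0.15). That value passed without library B6 (0.39, adjusted p = 0.031), a CL library at 211 CPM. In the other 5 groups the log2 fold change was between -0.14 and 0.35, negative in Veptp iECKO mice with (-0.14) and without (-0.04) TMM factors. Without TMM factors Krt7 passed in Pdgfb WT mice (0.58, SE 0.18, adjusted p = 0.0097) and in IgG-treated mice (0.48, SE 0.17, adjusted p = 0.029), where it also passed in the split libraries alone (0.50, adjusted p = 0.041) and with a mean count of at least 20 (0.39, adjusted p = 0.035). The CL and UUO ranges overlapped in all 6 groups. Krt7 stood closest to no change of the 10 in each comparison of UUO with CL kidneys.

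Cd44 (chr2:102811141-102901665, minus strand) ranged from 0 to 4.35 CPM (median 1.32) in IgG CL and from 28.7 to 86.6 CPM (median 58.8) in IgG UUO libraries. ABTAA-treated mice had 0.864 to 13.3 CPM (median 3.06) in CL and 23.1 to 81.9 CPM (median 46.7) in UUO libraries. The CL value of 13.3 CPM was 1 library (N_12), without which the ABTAA log2 fold change went from 3.58 to 4.17. In the Veptp arm Cd44 ranged from 0 to 4.80 CPM in WT CL, 19.8 to 80.8 CPM in WT UUO, 0.924 to 12.7 CPM in iECKO CL, and 13.1 to 108 CPM in iECKO UUO libraries. The Pdgfb WT CL libraries held 1.49, 2.26, 7.39, and 8.41 CPM and the UUO libraries 47.1, 72.9, 83.0, and 120.4 CPM. The labelled Pdgfb iKO CL libraries held 0, 2.59, 8.96, and 13.7 CPM and the UUO libraries 13.3, 51.8, 73.9, and 76.4 CPM. The ranges overlapped in this last group alone, where the UUO library at 13.3 CPM rested on 4 counts. The log2 fold change ran from 3.18 (SE 0.49) in labelled Pdgfb iKO to 4.73 (SE 0.55) in Veptp WT mice. Among the genes that make hyaluronan, bind it, or link CD44 to the cytoskeleton, moesin (Msn) rose by 1.43 (SE 0.16, adjusted p = 1.4e-08) in IgG and by 1.48 (SE 0.15, adjusted p = 2.5e-08) in Pdgfb WT mice, and the hyaluronan receptor Hmmr by 1.15 (SE 0.23) and 0.99 (SE 0.35). In IgG-treated mice radixin (Rdx) fell by 0.43 (SE 0.12, adjusted p = 0.0072). Of this list, 2 of 5 genes tested rose and 1 fell in IgG, 3 of 5 rose in ABTAA, 2 of 6 in Veptp WT, 0 of 6 in Veptp iECKO, 2 of 5 in Pdgfb WT, and 1 of 5 in labelled Pdgfb iKO mice.

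The other genes of the tubular injury programme moved with the members. Of 30 such genes, 27 were tested in the ABTAA arm and 28 in each other arm. In UUO kidneys 26 rose in IgG, 25 in ABTAA, 25 in Veptp WT, 22 in Veptp iECKO, 27 in Pdgfb WT, and 24 in labelled Pdgfb iKO mice, and none fell. Of all genes 16.3%, 12.6%, 10.0%, 4.47%, 17.9%, and 3.95% were called higher in that order. The list was chosen with earlier results of these data known, so that its counts are a description and no separate support. The list's median log2 fold change was 2.29 in IgG-treated mice against 0.02 over all genes. The adhesion molecule Vcam1 rose by 5.16 (SE 0.29), the TWEAK receptor Tnfrsf12a by 2.99 (SE 0.18), the chemokine Cxcl1 by 5.71 (SE 0.45), and complement C3 by 5.44 (SE 0.36) in IgG-treated mice. In Veptp iECKO mice ceruloplasmin (Cp) rose by 2.27 (SE 0.31) and the transcription factor Sox9 by 5.38 (SE 0.81). Of the genes that anchor keratin filaments, plectin (Plec) rose by 0.94 (SE 0.17) in IgG, 1.34 (SE 0.21) in Veptp WT, 1.01 (SE 0.22) in Veptp iECKO, and 1.51 (SE 0.21) in Pdgfb WT mice, and desmoplakin (Dsp) by 1.03 (SE 0.26) in IgG-treated mice. In all, 2 of 4 anchor genes tested rose in IgG, 1 of 4 in ABTAA, 2 of 6 in Veptp WT, 1 of 6 in Veptp iECKO, 2 of 5 in Pdgfb WT, and 0 of 5 in labelled Pdgfb iKO mice. Of 48 other keratin genes, 2 were tested, and those only in the Veptp arm, where Krt80 fell by 1.36 (SE 0.47, adjusted p = 0.037) in WT mice and Krt10 did not pass.

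Markers of the cell types in the kidney moved as well, and in whole-kidney RNA fewer cells of a type and less RNA per cell cannot be told apart. Of 10 proximal tubule markers, 9 fell in IgG, 7 in ABTAA, 5 in Veptp WT, 5 in Veptp iECKO, 10 in Pdgfb WT, and 4 in labelled Pdgfb iKO mice. Of all genes, 18.2% were called lower in IgG, 12.5% in ABTAA, 8.38% in Veptp WT, 3.48% in Veptp iECKO, 19.4% in Pdgfb WT, and 2.42% in labelled Pdgfb iKO mice. The organic anion transporter Slc22a8 fell by 2.46 (SE 0.36) in IgG and by 3.12 (SE 0.31) in Pdgfb WT mice. In IgG-treated mice 4 of 4 loop of Henle, 4 of 5 distal tubule, and 5 of 8 collecting duct markers fell, and 8 of 8 macrophage and 7 of 7 fibroblast markers rose. The summed fibroblast markers ranged from 163 to 349 CPM in IgG CL and from 1203 to 1862 CPM in IgG UUO, and the summed macrophage markers from 131 to 242 CPM and from 471.5 to 1084 CPM. Clu, Spp1, Lcn2, and Cd44 are also made by such cells, and the part of these cells in their rise was not tested. Neutrophils are a source of Lcn2. None of 8 neutrophil markers had enough counts to be tested, their sum lay between 0 and 21.8 CPM in IgG CL and between 2.84 and 25.1 CPM in IgG UUO libraries, with 95.3 CPM in 1 Veptp WT UUO library the highest of all, and Ly6g had 0 counts in 62 of 75 libraries. None of 6 T cell markers was tested, with sums of at most 35.9 CPM. Of 4 podocyte markers 1 rose, of 6 endothelial markers 2 rose and 1 fell, of 3 fat markers tested 1 rose, and of the mesothelial markers none was tested in IgG-treated mice.

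Of the keratins, Krt18 and Krt19 went with markers of urothelium, the lining of the renal pelvis and ureter, in CL kidneys. The sum of 7 urothelial markers (Upk1a, Upk1b, Upk2, Upk3a, Krt5, Trp63, Psca) was at most 22.3 CPM in IgG CL, 46.0 CPM in ABTAA CL, 22.8 CPM in the Pdgfb arm's CL, 111 CPM in Veptp WT CL, and 217 CPM in Veptp iECKO CL libraries. The library with 217 CPM (G_3) was also the CL library with the highest Krt19 (30.8 CPM), Krt18 (105 CPM), and Krt7 (216 CPM), while its Krt8 stood at 96.7 CPM and its Krt20 at 1.76 CPM. Over 36 CL libraries, taken as deviations from the mean of their genotype and form of name, the urothelial sum correlated with Krt18 at r = 0.78 (Spearman's rho 0.72) and with Krt19 at r = 0.72 (rho 0.69). By permutation within genotype and form the adjusted p over the 20 relations computed was 0.0004 and 0.0011 for r and 0.0032 for both rho. Without the 2 libraries farthest from the median urothelial sum r was 0.69 and 0.63, and within plain and split names it was 0.63 and 0.86 for Krt18 and 0.60 and 0.80 for Krt19. Krt7 gave r = 0.56 (permutation adjusted p = 0.13), Krt20 0.24, and Krt8 0.20, neither of the last passing. In 39 UUO libraries none of the 10 genes passed, Krt19 being the nearest with r = 0.36 (permutation adjusted p = 0.13), and 0.89 within the 15 split libraries against 0.01 within the 24 plain ones. In UUO libraries the urothelial sum was 4.95 to 39.9 CPM in IgG-treated and 7.60 to 16.0 CPM in Pdgfb WT mice, where Krt19 stood at 18.6 to 85.2 CPM and 20.3 to 47.5 CPM. These relations were computed after the values had been seen.

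The question of the treated mice was whether activation of TIE2 or loss of Pdgfb changed the injury response. In UUO kidneys of ABTAA-treated against IgG-treated mice none of the 10 genes passed, as 0% of all genes did by edgeR, with 340 of 9579 genes at an unadjusted p under 0.05 and 0 of the 10 genes called by DESeq2. All 10 log2 fold changes were negative, from -0.39 (Krt19, SE 0.37, and Lcn2, SE 0.23) to -0.11 (Krt7, SE 0.15), with a median of -0.22 against 0.01 over all genes. Havcr1 had -0.22 (SE 0.24) and Spp1 -0.22 (SE 0.23). The ranges overlapped for each gene. In CL kidneys none passed either, with 0% of all genes called and 303 at an unadjusted p under 0.05, and the responses to UUO differed by values from -1.11 (Cd44, SE 0.67) to -0.15 (Krt7), again with 0% of all genes called and 315 at an unadjusted p under 0.05.

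**Figure D3:**
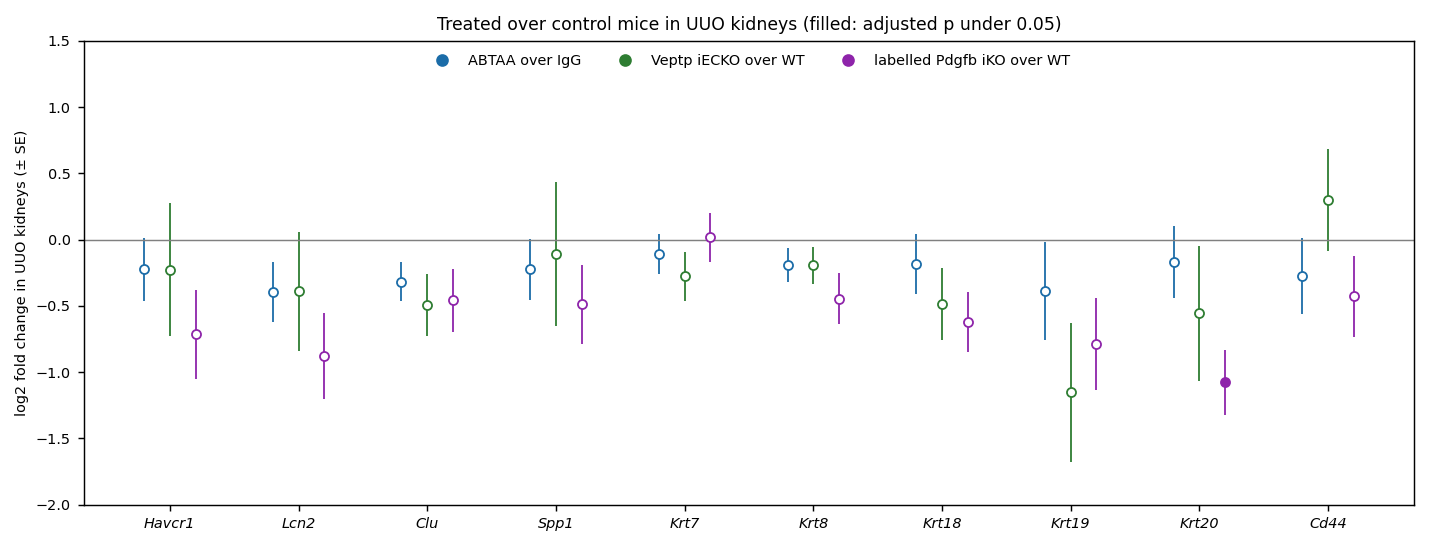
Log2 fold change of treated over control mice within UUO kidneys, with its SE (edgeR), for the 10 genes in the 3 arms. Filled symbols mark an adjusted p under 0.05, which Krt20 alone reached, at -1.08 in kidneys labelled Pdgfb iKO.

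In Veptp iECKO against Veptp WT mice none of the 10 genes passed in UUO kidneys, CL kidneys, or the difference between the responses, as 0% of all genes did in each by edgeR. At an unadjusted p under 0.05 there were 426, 229, and 323 of 11916 genes, and DESeq2 called 0 of the 10 genes in each. In UUO kidneys 9 of 10 were lower and the exception was Cd44 (0.30, SE 0.38), with Krt19 the lowest (-1.15, SE 0.52) and Clu at -0.49 (SE 0.23), and 9 were lower without TMM factors too. In CL kidneys Clu had 0.94 (SE 0.26), Havcr1 1.46 (SE 0.67), and Spp1 1.14 (SE 0.61). Without B8 these were 0.58 (SE 0.22), -0.86 (SE 0.40), and 0.19 (SE 0.56), so that the sign turned for Havcr1. The difference between the responses was -1.43 for Clu (SE 0.35, adjusted p = 0.82), -1.07 (SE 0.30, adjusted p = 0.999) without B8, and -1.57 without the libraries numbered 3, 4, 7, and 8. Clu in CL libraries other than B8 stood at 358 to 504 CPM in Veptp iECKO, 3 of these 5 above the highest Veptp WT CL library (402 CPM).

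Under obstruction, 1 of the 10 genes differed between Pdgfb WT mice and those labelled Pdgfb iKO. The log2 fold change of Krt20 was -1.08 (SE 0.24, adjusted p = 0.0024), while 6.60% of all genes were called lower. This was 33.5 ± 3.98 CPM (SD, n = 4) in labelled iKO against 73.4 ± 18.4 CPM (n = 4) in WT kidneys. Lcn2 had -0.88 (SE 0.32, adjusted p = 0.062), Krt19 -0.79 (SE 0.35, adjusted p = 0.12), Havcr1 -0.71 (SE 0.34, adjusted p = 0.15), Krt18 -0.62 (SE 0.23, adjusted p = 0.057), Spp1 -0.49 (SE 0.30, adjusted p = 0.28), Clu -0.46 (SE 0.24, adjusted p = 0.20), Krt8 -0.44 (SE 0.19, adjusted p = 0.11), and Cd44 -0.43 (SE 0.30, adjusted p = 0.36). None of these 8 passed. Krt7 had 0.02 (SE 0.18), a sign that turned without TMM factors (-0.26). Krt20, Lcn2, and Clu had ranges that did not overlap, 3 of 10 genes against 9.6% of all genes with each labelled iKO library below each WT library.

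The count of lower genes changed with the fit. It was 5 when the 2 UUO groups were fitted alone, with Clu, Havcr1, Krt18, Krt20, and Lcn2 called (Lcn2 adjusted p = 8.7e-05) and 7.92% of all genes called lower, and 0 when all 12 groups shared 1 fit (Krt20 adjusted p = 0.23), with 0.50% of all genes called lower. After thinning to the shallowest library it was 3 (Havcr1, Lcn2, and Krt18) against 2.03% of all genes, and Krt20 did not pass (-1.20, adjusted p = 0.084). Lcn2 also passed without E4, F4, A5, or B10, Krt18 without E4, A5, B10, B11, or E11, and Krt8 without E11. Without TMM factors 8 genes passed, and the median of all genes moved by -0.27. The split of all genes then went from 1314 higher and 721 lower to 657 higher and 2502 lower. In the same comparison 10 of 28 injury programme genes were lower, among them Cp (-1.03, SE 0.19), Sox4 (-0.94, SE 0.18), Cd14 (-1.48, SE 0.31), and C3 (-1.11, SE 0.24), all adjusted p below 0.002. The integrins Itgav (-0.45, SE 0.14) and Itgb1 (-0.41, SE 0.13) and the linkers Msn (-0.81, SE 0.14) and Plec (-1.02, SE 0.20) were also lower, and Lrp2 was higher (0.82, SE 0.17).

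Cell-type markers moved with these values. In labelled Pdgfb iKO UUO kidneys 8 of 10 proximal tubule, 4 of 4 loop, 4 of 5 distal, and 4 of 8 collecting duct markers were higher, as were 12.0% of all genes, and 6 of 7 fibroblast, 5 of 8 macrophage, and 3 of 6 endothelial markers were lower. The summed proximal tubule markers ranged from 3438 to 4709 CPM in WT and from 7874 to 22744 CPM in labelled iKO UUO libraries, and the summed fibroblast markers from 1179 to 1584 CPM and from 415 to 984 CPM. Their part in the lower injury markers was not tested. In CL kidneys 0% of all genes passed between the genotypes and none of the 10. The difference between the responses to UUO passed for 8.55% of all genes and for none of the 10, with Havcr1 at 0.01 (SE 0.53), Lcn2 at -0.07 (SE 0.70), and Krt18 at -0.76 (SE 0.37). Krt20, which was lower in UUO kidneys, had 1.45 (SE 1.15) here, where its CL values were at most 7.01 CPM in both genotypes.

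By the median of UUO kidneys, Havcr1 was highest in IgG (1329 CPM), followed by ABTAA, Veptp WT, Pdgfb WT, Veptp iECKO, and labelled Pdgfb iKO mice (519 CPM). Lcn2 had the same first, second, and last group, with 355 CPM in IgG and 123 CPM in labelled Pdgfb iKO mice. Labelled Pdgfb iKO kidneys were last for Havcr1, Lcn2, Krt8, and Krt18, Veptp iECKO kidneys for Clu, Spp1, Krt7, Krt19, and Krt20, and ABTAA kidneys for Cd44. Neighbours in each order overlapped in their ranges, apart from Pdgfb WT and labelled Pdgfb iKO kidneys for Clu. Groups of different arms were not compared by a test. These medians mix both forms of library name in the ABTAA and Veptp arms, while the Pdgfb arm is all plain. Among plain libraries the order of Havcr1 was IgG (982 CPM), Pdgfb WT (874 CPM), ABTAA (730.3 CPM), Veptp WT (661 CPM), Veptp iECKO (603 CPM), and labelled Pdgfb iKO mice (519 CPM), and ABTAA-treated mice stood at rank 4 for Lcn2. Labelled Pdgfb iKO kidneys were then last for Havcr1, Lcn2, Krt8, and Spp1, and Veptp iECKO kidneys for the other members.

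The form of the library name went with the level of Spp1 in the Veptp arm, of Havcr1 in the UUO kidneys of the ABTAA arm, and of Lcn2 in ABTAA-treated mice. In Veptp WT CL kidneys Spp1 stood at 2817, 2945, and 3714 CPM in the plain libraries and at 830.3 to 1060.2 CPM in the 4 split libraries, and in Veptp WT UUO kidneys at 10927 to 27929.5 CPM and 3093 to 8339 CPM. In Veptp iECKO kidneys the plain libraries held 4632 and 14083 CPM in CL and 8461 to 29987 CPM in UUO, and the split libraries 1031 to 2048 CPM and 4331 to 7703 CPM. In none of the 4 Veptp groups did the forms overlap, and the level was not tested between them. The split libraries of this arm were also deeper, at 960023 to 2341800 counts against 178137 to 858624 in the plain ones. In Veptp WT CL kidneys the summed proximal tubule markers parted by form too (15172 to 31372 CPM plain, 9060 to 11704 CPM split). The macrophage sums there overlapped (144 to 194 and 165 to 235 CPM). How many of all genes part by form was not counted. In the 4 groups of the ABTAA arm the ranges of Spp1 in plain and split libraries overlapped, with means of 2946 and 2928 CPM in IgG CL and of 22599 and 20792 CPM in IgG UUO kidneys. In IgG UUO kidneys Havcr1 stood at 825 to 1154 CPM in the plain and 1504 to 1769 CPM in the split libraries, and in ABTAA UUO kidneys at 499 to 897 CPM and 1330 to 2016 CPM. In ABTAA-treated mice Lcn2 also did not overlap between the forms, with 2.85 to 13.2 CPM and 15.3 to 18.8 CPM in CL and 164 to 269.8 CPM and 321 to 346 CPM in UUO kidneys. The response of Havcr1 to UUO differed between the forms by 2.96 (SE 0.57, adjusted p = 0.0077) in the Veptp arm, larger in the split libraries, with 0.344% of all genes called. That difference was 1.34 (adjusted p = 0.59) without B8. In the ABTAA arm it was 1.30 (SE 0.33, adjusted p = 0.11) with 0% of all genes called by edgeR, and it passed without P_4 (1.70, adjusted p = 0.027), without G6 (1.39, adjusted p = 0.048), and with DESeq2. Within the split libraries 8 of the 10 genes rose in Veptp iECKO mice, and within the plain ones, with 2 CL libraries of which 1 was B8, none passed. Of all genes, 10.5% were called higher in the split libraries and 0% in the plain ones.

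**Figure D4:**
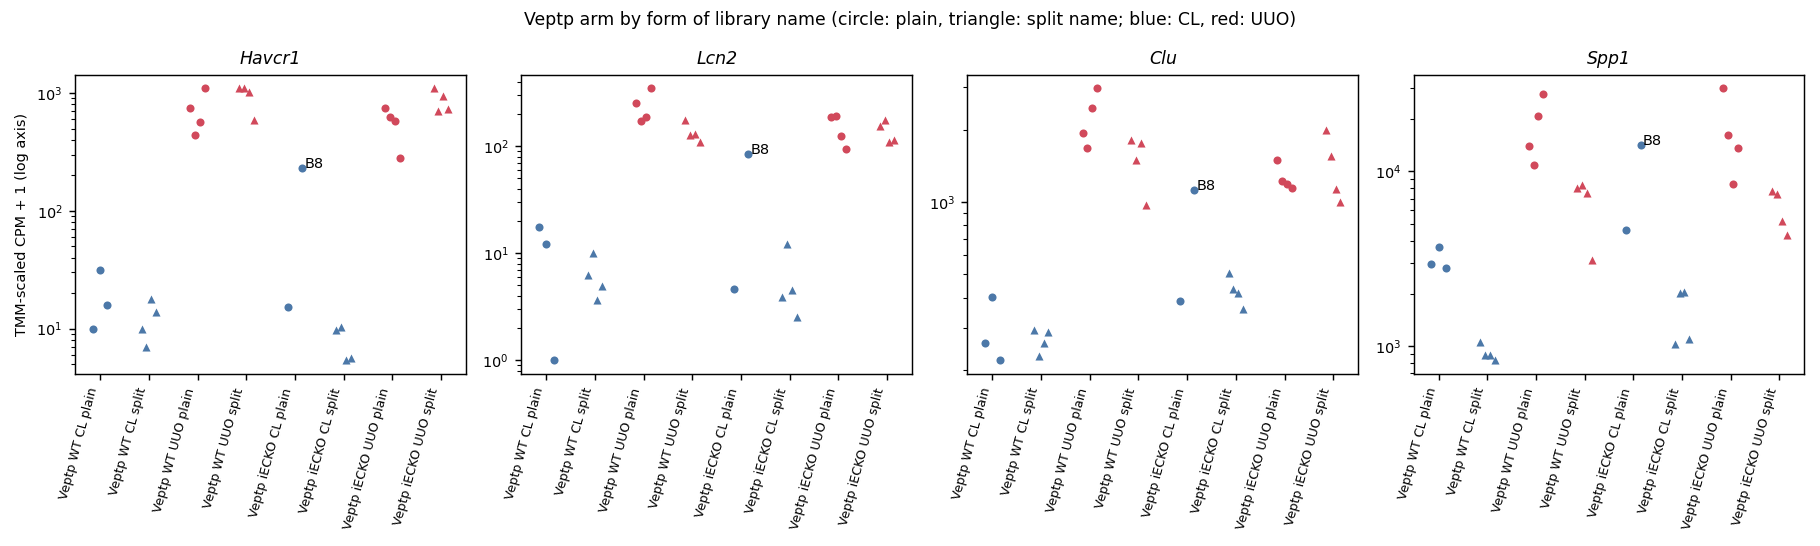
Havcr1, Lcn2, Clu, and Spp1 (TMM-scaled CPM plus 1, log axis) in the Veptp arm by genotype, kidney, and form of library name, with CL in blue, UUO in red, plain names as circles, and split names as triangles. The iECKO CL library B8 lies at 228, 84.4, 1123, and 14083 CPM, above the other CL libraries, and Spp1 is lower in the split than in the plain libraries of each group.

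Library B8 was above the other 5 Veptp iECKO CL libraries in 6 of the 10 genes by wide gaps, in Havcr1 (228 against at most 14.4 CPM), Lcn2 (84.4 against 11.1), Clu (1123 against 504), Spp1 (14083 against 4632), Krt20 (16.9 against 1.76), and Cd44 (12.7 against 3.60 CPM). Its Krt8 (152 CPM) was just above the next (146 CPM), and its Krt7 (131 CPM), Krt18 (38.0 CPM), and Krt19 (4.22 CPM) lay within their range. Its summed injury programme genes stood at 2292 CPM, between the other CL libraries (766 to 1306 CPM) and the Veptp iECKO UUO libraries (3006 to 5288 CPM). Its fibroblast markers summed to 781 CPM and its macrophage markers to 426 CPM, the highest of its group, and its distal markers to 971 CPM, the lowest, while its proximal tubule markers, at 24873 CPM, were the highest. Without B8, Havcr1 rose by 6.57 (SE 0.44), Lcn2 by 4.94 (SE 0.47), and Krt20 by 6.22 (SE 0.81) in Veptp iECKO mice, with 8 of 10 genes called. Without the libraries numbered 3, 4, 7, and 8 the called genes were 5 (Havcr1, Lcn2, Krt8, Krt18, and Cd44), B8 being kept, with 0.852% of all genes called higher. Clu (1.26, adjusted p = 0.082) and Krt20 (3.71, adjusted p = 0.082) then no longer passed.

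Within UUO kidneys the members did not vary as 1 block. Over 39 UUO libraries, as deviations from the mean of genotype and form of name on a log2(CPM + 1) scale, 34 of 45 pairs had a positive Pearson r, with a median of 0.18 and a range from -0.48 to 0.79. By permutation within genotype and form 7 pairs passed at an adjusted p under 0.05 for r, 6 of them also for Spearman's rho. Points of a pair share their library and its depth. Clu and Spp1 were closest (r = 0.79, rho 0.77, permutation adjusted p = 0.000225, the smallest p that the 100000 permutations can give being 1e-05 before adjustment), with 0.78 within the plain and 0.84 within the split libraries. The partners Krt8 and Krt18 followed (r = 0.68, rho 0.78, permutation adjusted p = 0.000225), and r was 0.71 without the 2 libraries farthest from the median of Krt8.

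Krt7, whose mean did not pass between CL and UUO kidneys, varied with Krt18 (r = 0.59, rho 0.62, permutation adjusted p = 0.003) and Krt8 (r = 0.47, rho 0.54, permutation adjusted p = 0.011) from one UUO kidney to the next. Lcn2 varied with Clu (r = 0.60, permutation adjusted p = 0.0088), Havcr1 with Clu (r = 0.52, permutation adjusted p = 0.021, but 0.089 for rho) and with Cd44 (r = 0.49, permutation adjusted p = 0.043). The last relation was 0.60 within the plain and 0.13 within the split libraries. Havcr1 and Lcn2, both urinary injury markers, had r = 0.52 and did not pass (permutation adjusted p = 0.055). They had 0.62 within the plain and 0.17 within the split libraries. Spp1 and Krt19 ran opposite (r = -0.48, rho -0.42, permutation adjusted p = 0.13), which did not pass, and r was -0.33 without the 2 libraries farthest from the median of Spp1.

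**Figure D5:**
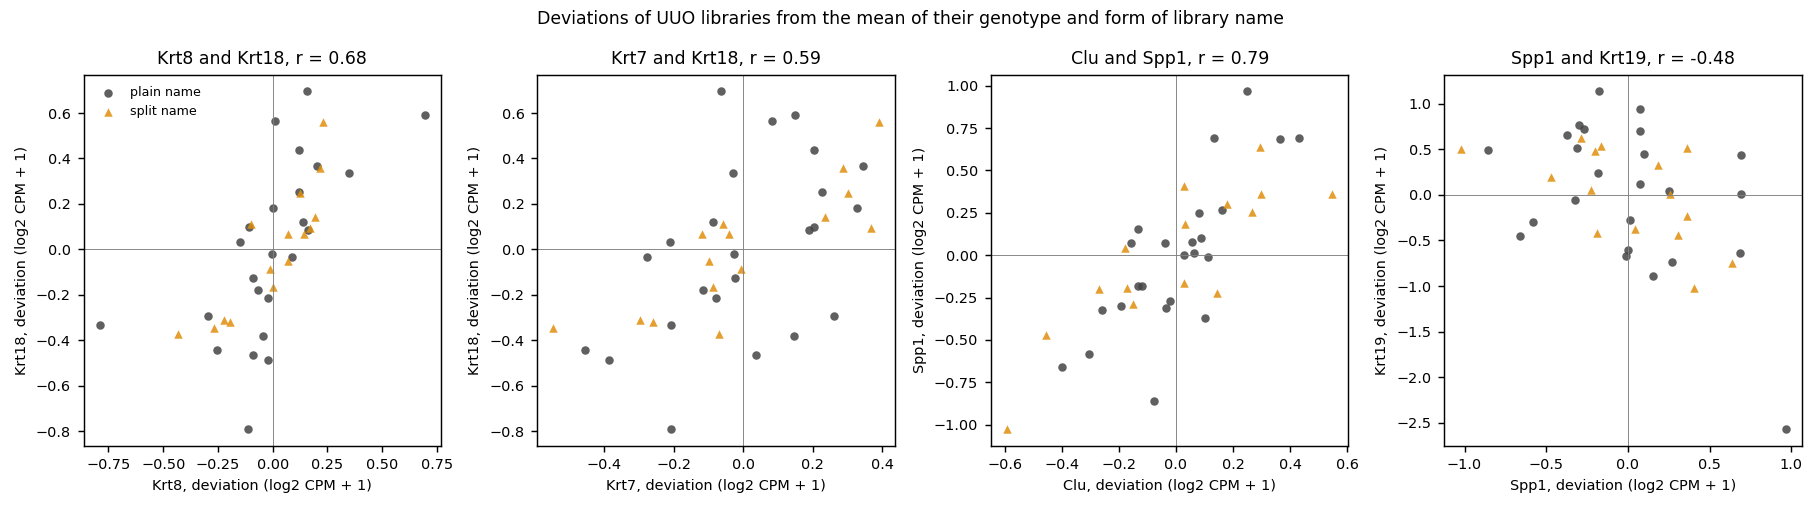
Deviations of 39 UUO libraries from the mean of their genotype and form of name, in log2(CPM + 1), for 4 pairs of genes, with plain names as circles and split names as triangles. Krt8 with Krt18, Krt7 with Krt18, and Clu with Spp1 rise together (r = 0.68, 0.59, and 0.79), and Spp1 with Krt19 has r = -0.48, drawn partly from 1 library at the lower right.

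Among 9544 genes tested in all 3 arms, those most like each member over the same 39 libraries were named by r, as a description. Havcr1 was most like Clic1 (0.82), Anxa2 (0.78), and Tnfrsf12a (0.77), and Lcn2 most like Nfkbiz (0.70), Telo2 (0.68), and Map3k1 (0.67). Clu was most like Ctsd (0.88), Actb (0.85), and B2m (0.80), and Spp1 most like Actb (0.81), Gas5 (0.81), and AY036118 (0.80). For the keratins these were Cdh6 (0.69) and Apela (0.67) with Krt7, Tubb2b (0.71) and Slc34a2 (0.70) with Krt8, Kctd3 (0.73), Agrn (0.69), and Pea15a (0.69) with Krt18, Adal (0.88), Add1 (0.82), and Tmem184a (0.76) with Krt19, and Efhd2 (0.73), Ttc17 (0.68), and Itgav (0.67) with Krt20. Cd44 was most like Slc1a2 (0.75), Vps18 (0.74), and Tapbp (0.73). Actb was thus named for both Clu and Spp1.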

How the data were processed

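Whole-kidney RNA was made into libraries by a Smart-seq3-based method. Per the submitters' processing notes and the methods, the authors merged the 4 wells run for each sample and used STAR 2.7.3a, UMI-tools 1.1.4, featureCounts (Subread 1.4.6-p5), and build mm10, and the annotation is not given in the sources used here. The deposited values are whole-number counts per gene without normalization, 172827 to 2341800 per library, and no 2 columns were identical. The study counted 1 animal as 1 unit, and the labels do not say which CL and UUO kidneys share a mouse.

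Each arm was fitted over its 4 groups in R 4.3.3 with edgeR 4.0.16 (filterByExpr, TMM, glmQLFit, glmQLFTest; adjusted p under 0.05), with DESeq2 1.42.0, the exact test named in the study's methods, and other settings as alternatives. SE is the size of the log2 fold change over the square root of F. The form of the library name was tested as an interaction. Levels used TMM factors over all 75 libraries. Correlations (numpy 2.4.6) used a pseudocount of 1 CPM and 100000 permutations. The procedure was tested on simulated data. Symbols were located in GENCODE vM21 (GRCm38, the assembly of mm10). The rule named the 10 genes, at most 4 genes of lowest p per list and comparison, and the 3 genes most like each member, of which 1 gene is not reported here. Members and lists were chosen with earlier results of these data known.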

Additional observations from a re-analysis of the deposited data

Results flagged for a closer look

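Dixon's test was applied to 120 sets of CPM values (10 genes in each of 12 groups of 4 to 8 libraries). In 14 sets the highest or lowest library had a gap to the next that was large against the range of the group. The limits of the test allow about 1 in 20 by chance for normally distributed values. That rate cannot be used here, as the CPM were not on a log scale and some sets rest on few counts. The sets also share libraries, and B8 gave several of the 14. Whether 14 exceeds chance was therefore not tested. Library B8 of the Veptp iECKO CL group stood out for Havcr1 (228 CPM, next 14.4), Lcn2 (84.4 CPM, next 11.1), Clu (1123 CPM, next 504), Spp1 (14083 CPM, next 4632), Krt20 (16.9 CPM, next 1.76), and Cd44 (12.7 CPM, next 3.60). Its other markers are given with the comparisons above.

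In other CL groups the highest library stood out for Havcr1 in labelled Pdgfb iKO (A11, 54.8 CPM), Krt20 in labelled Pdgfb iKO (E10, 2.28 CPM, 1 count), Clu in Veptp WT (A8, 402 CPM), Krt19 in IgG (P_1, 8.98 CPM), and Cd44 in ABTAA mice (N_12, 13.3 CPM). In UUO groups it was Krt20 in IgG (D7, 136 CPM), Spp1 in Veptp iECKO (C8, 29987 CPM), and, as the lowest library, Krt8 in IgG-treated mice (P_7, 197 CPM). The response of Havcr1 to UUO differed between the forms of library name in the Veptp arm by 2.96 (SE 0.57, edgeR adjusted p = 0.0077), and by 1.34 without B8, where it no longer passed.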

How the results depend on the processing

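No fold change of a gene that passed turned its sign under any alternative run. Of the values of single genes and pairs, 1664 kept their side of the threshold under the planned and added alternatives, 48 gained a call, and 15 lost one, and when 1 library was left out these counts were 4323, 16, and 1. Signs turned only among values that did not pass, in 78 and 121 cases. For labelled Pdgfb iKO against Pdgfb WT UUO kidneys the 1 gene called became 8 without TMM factors, 8 without a filter on low counts, 2 with a mean count of at least 20, 5 with the exact test, 5 with the groups compared alone, 3 after thinning to the shallowest library, and 0 with all 12 groups in 1 fit. The share of all genes called lower went from 6.60% to 22.9%, 3.38%, 8.61%, 8.53%, 7.92%, 2.03%, and 0.5% in that order. The 7 genes called in Veptp iECKO UUO kidneys became 4 after thinning and 0 in the plain libraries, 9 with the name form as a covariate, and 8 without TMM factors, in the split libraries, or with all 12 groups in 1 fit. The share of all genes called higher moved as well, from 4.47% to 0.276% after thinning, 0% in the plain libraries, 10.7% with the covariate, 5.14% without TMM factors, 10.5% in the split libraries, and 7.63% with all groups. After thinning, IgG and ABTAA mice had 6 called of 7 genes still tested and Veptp WT mice 7 of 8, with 8.22%, 4.58%, and 1.96% of all genes called higher. The 8 genes called in labelled Pdgfb iKO mice became 7 after thinning (Krt18 adjusted p = 0.14) and 7 with all 12 groups in 1 fit (Spp1 adjusted p = 0.35). The share of all genes called higher there went from 3.95% to 0.87% and 0.975%. The response of Veptp iECKO minus Veptp WT mice gave 1 called gene (Clu) with all 12 groups in 1 fit, where 0.0246% of all genes were called lower. The form of library name gave 1 gene in the ABTAA arm with DESeq2 and 1 without the filter, and 2 in the Veptp arm without the filter. Of all genes 0.185%, 0.0974%, and 0.293% were called higher in these runs. The causes were not tested. The subsets held fewer libraries, thinning left fewer counts, and the plain Veptp iECKO CL libraries included B8.

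Leaving out 1 library at a time gave 9 to 10 called genes in IgG, 9 in ABTAA, 9 in Veptp WT, 7 to 8 in Veptp iECKO, 9 in Pdgfb WT, and 8 to 9 in labelled Pdgfb iKO mice for UUO against CL kidneys. It gave 1 to 3 for labelled Pdgfb iKO against Pdgfb WT UUO kidneys, 0 to 1 for the form of name in either arm, and 0 for the other treated against control comparisons. The higher and lower calls over all genes without TMM factors were 2493 and 1086 against 1561 and 1740 in IgG, 1592 and 796 against 1210 and 1197 in ABTAA, 1388 and 543 against 1195 and 999 in Veptp WT, 613 and 242 against 533 and 415 in Veptp iECKO, 4453 and 1153 against 1959 and 2118 in Pdgfb WT, and 567 and 152 against 432 and 264 in labelled Pdgfb iKO mice. For the difference between the Pdgfb responses they were 312 and 668 against 727 and 207. The replicate number as a block could be fitted only in the split libraries, where 9 genes passed in Veptp iECKO mice with the block against 8 without it, and Havcr1 rose by 6.75 against 7.04. Krt19 was the gene gained (1.77, SE 0.48, edgeR adjusted p = 0.0062), and 12% of all genes were called higher with the block against 10.5% without it. Libraries sharing a number correlated at 0.06 to 0.44 (mean 0.24) in the Veptp arm and 0.10 to 0.28 (mean 0.18) in the ABTAA arm. Libraries of different numbers gave -0.43 to 0.37 (mean -0.03) and -0.20 to 0.07 (mean -0.09). Sharing a number thus went with a higher correlation on average, and the numbers may mark mice. As the labels do not say so and not every pair was above 0.1, the pairing was not used in the main fits. With a pseudocount of 5 CPM, added after the data were seen, the urothelial sum also passed with Krt7 and Lcn2 in CL and with Krt19 in UUO libraries (r = 0.51). Krt20, Krt19, Cd44, and Lcn2 in CL kidneys rest on few counts, which limits their fold changes.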
